A study of Mus musculus with 9 samples.

Results

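The 8 genes of the core circadian clock loop were followed in mouse brown adipose tissue (BAT) during acute cold. They were taken by gene name, as Arntl (also called Bmal1), Clock, Npas2, Per1, Per2, Per3, Cry1 and Cry2, out of 16937 genes listed in any of the 3 tables of the series. All 8 had values in every library. RNA sequencing was done on BAT of 3 groups of adult mice on the C57Bl/6J background, with 3 mice and 3 libraries per group. The paper states that males and females were included, and the labels do not give the sex of a library. WT RT mice were wild type and were held at 23 °C. WT Cold mice were wild type and spent 8 h at 4 °C. GCN2 KO Cold mice carried a whole-body deletion of GCN2, the kinase encoded by Eif2ak4 that senses amino acid shortage, and also spent 8 h at 4 °C. All mice were raised at 23 °C, and the groups were killed at one time of day, so a shift in clock phase and a change in level cannot be told apart. GCN2 KO mice held at room temperature were not analysed here, and no test of whether cold acted differently in the 2 genotypes was therefore made. The libraries of a group are called A, B and C in the order of their codes. Codes begin differently for WT RT than for the cold libraries, the sources used here do not say what this marks, and whatever it marks cannot be told apart from the cold.

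The core clock is a transcriptional feedback loop. CLOCK, or its relative NPAS2, pairs with BMAL1 and activates genes with an E-box in their promoters, among them the Per and Cry genes, and the PER and CRY proteins then repress that pair. A second loop, in which REV-ERB proteins repress Arntl, and the D-box binding factors DBP, TEF, HLF and NFIL3 are coupled to the core. Per1 and Per2 are also known as genes that respond directly to cAMP signalling and to glucocorticoids, and BAT is a tissue in which the loop oscillates and in which cold acts through noradrenaline and cAMP.

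The promoters of the members carry these elements unequally. RefSeq start sites (GRCm38.p6) gave 11 promoter windows for 7 of the 8 members, and Per2 has no entry. Each window of 300 bases was searched on both strands for the E-box CACGTG, the E-box-like CACGTT, the cAMP response element TGACGTCA, its core TGACG (which the full element contains), the D-box TTATGTAA and the nuclear receptor element AGGTCA. The E-box was in 7.15% of all 32851 promoters of this length, the E-box-like letters in 4.68%, the full cAMP element in 1.79%, its core in 20.8%, the D-box in 0.938% and the receptor element in 16.3%. The 4 windows below are shown, up to the last base before the start site, because they hold the E-boxes of Per1 and Cry1, the paired D-boxes of Per3 and, for Arntl, none of these 3 kinds of motif. Capitals mark an E-box, an E-box-like or a D-box match, and an E-box-like match on the other strand reads AACGTG here.
Per1, chr11:69098699-69098948, strand +: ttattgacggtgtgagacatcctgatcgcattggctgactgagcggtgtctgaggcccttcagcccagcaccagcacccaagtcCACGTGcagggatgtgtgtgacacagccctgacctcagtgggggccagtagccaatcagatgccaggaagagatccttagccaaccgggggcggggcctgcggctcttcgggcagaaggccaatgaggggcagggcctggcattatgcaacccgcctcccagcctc
Cry1, chr10:85185055-85185304, strand -: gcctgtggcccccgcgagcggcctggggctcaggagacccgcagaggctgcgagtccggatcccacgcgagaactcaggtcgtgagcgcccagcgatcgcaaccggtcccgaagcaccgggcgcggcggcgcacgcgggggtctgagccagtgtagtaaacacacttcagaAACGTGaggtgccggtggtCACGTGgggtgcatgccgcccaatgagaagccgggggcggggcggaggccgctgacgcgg
Per3, chr4:151044666-151044915, strand -: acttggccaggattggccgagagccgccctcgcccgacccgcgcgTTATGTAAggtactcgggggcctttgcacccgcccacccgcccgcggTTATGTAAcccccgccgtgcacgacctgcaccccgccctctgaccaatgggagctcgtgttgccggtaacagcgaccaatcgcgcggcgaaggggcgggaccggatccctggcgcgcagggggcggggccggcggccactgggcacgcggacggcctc
Arntl, chr7:113207215-113207464, strand +: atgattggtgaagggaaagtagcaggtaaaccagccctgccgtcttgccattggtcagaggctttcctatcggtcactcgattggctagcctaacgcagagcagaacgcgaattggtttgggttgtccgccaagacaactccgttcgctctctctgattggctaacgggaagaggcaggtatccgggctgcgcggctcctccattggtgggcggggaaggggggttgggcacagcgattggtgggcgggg

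In GENCODE, the Per1 window lies in an intron of a longer Per1 transcript, the Per3 window in an intron of a Camta1 transcript on the same strand, and the last bases of the Cry1 window in its first exon. The Arntl window lies outside annotated genes. Counted from the start site, the E-box of Per1 began at position -166 and that of Cry1 at -60, and Cry1 also held an E-box-like match at -79. The core of the cAMP element was at -246 in the Per1 window shown and at -132 before the other Per1 start. It was also at -8 in Cry1 and at -209 in Cry2, which held an E-box-like match at -166 as well. Per3 was the only member with D-boxes, at -205 and -158, and no window held the full cAMP element. The receptor element was at -137 in Per1, at -119 before one of the Clock starts and at 32 bases after one of the Arntl starts. Npas2 held none of the 6 motifs. A match of letters is a description and does not show that a factor was bound.

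Depth was alike, with 27058799 to 30768064 reads assigned to genes per library. The targeted gene went against its label. Eif2ak4 was at 11.1, 12.6 and 13.0 reads per 1000000 reads assigned to genes (CPM) in WT RT, at 6.46, 8.31 and 8.34 CPM in WT Cold, and at 11.9, 12.7 and 11.8 CPM among libraries labelled GCN2 KO Cold. Its level there was within the WT RT range and above every WT Cold library. The values are sums over the whole gene and cannot show whether a part of it was deleted. The 9 brown adipocyte markers were present in every library, and their summed level was 18197 to 20127 CPM in WT RT, 23538 to 25158 CPM in WT Cold and 27425 to 28341 CPM among libraries labelled GCN2 KO Cold. Its members did not all go the same way: Ucp1 was at 3592 to 5273, 7970 to 8995 and 9494 to 9693 CPM in the same order, and Adrb3 at 260 to 341, 117 to 135 and 71.5 to 104 CPM. Markers of other cells also moved with the groups, and their part in the results was not tested. The sum of 12 leukocyte markers was 131 to 258 CPM in WT RT, with library B highest, against 45.5 to 72.1 CPM in WT Cold and 36.9 to 54.9 CPM among libraries labelled GCN2 KO Cold. For 10 skeletal muscle markers the sums were 2288 to 2805, 2055 to 3472 and 312 to 1293 CPM in the same order, and for 5 erythrocyte markers 260 to 345, 572 to 2279 and 1084 to 2081 CPM. For 6 endothelial markers they were 516 to 568, 604 to 737 and 483 to 587 CPM, and for 6 Schwann cell and nerve markers 88.7 to 116, 108 to 148 and 97.6 to 121 CPM. In bulk tissue, fewer cells of a type and less RNA per cell cannot be told apart.

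Over the 8 members, 4 rose in WT Cold relative to WT RT and none fell by limma at an adjusted p under 0.05, and all 4 changed by more than 1 on the log2 scale. They were Arntl, Per1, Per2 and Cry1. Of the 16679 genes tested, 27.7% were called in that comparison, 13.6% as higher and 14.1% as lower, and 8.14% were past the threshold on fold as well. In the libraries labelled GCN2 KO Cold relative to WT RT, 5 members rose, these 4 and Clock, against 34.2% of 16560 genes called and 16.4% called higher and 17.8% lower. The 4 were again past the threshold on fold, as were 10.6% of all genes. In each of these comparisons 5 members (Arntl, Clock, Per1, Per2 and Cry1) had normalized counts that were higher in every cold library than in every WT RT library and none had lower ones throughout, against 22.8% of genes higher and 22.8% lower in WT Cold and 23.7% higher and 25.5% lower among libraries labelled GCN2 KO Cold. The median log2 fold change of the members was 0.75 and 0.67 in the 2 comparisons, against 0.00 and 0.01 over all genes. Both comparisons use the same 3 WT RT libraries, so the second does not repeat the first independently. The levels given next are CPM, which can be set side by side over all 9 libraries, and the fold changes are from limma on the normalized counts of each table, given as a difference in log2 with its standard error (SE).

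**Figure D1:**
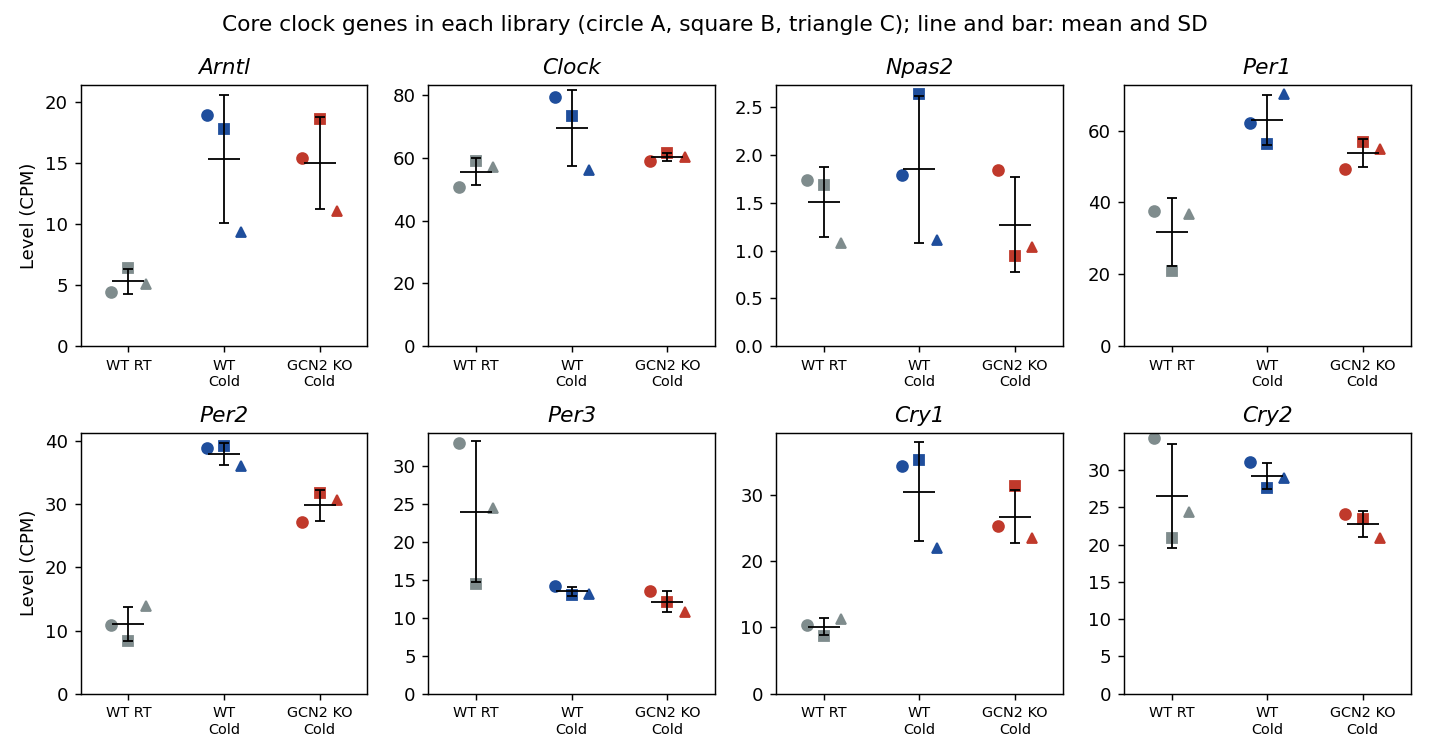
Levels of the 8 core clock genes in CPM on linear axes that start at 0, with 1 panel per gene and WT RT, WT Cold and GCN2 KO Cold side by side; points are libraries (circle A, square B, triangle C), and line and bar are the mean and SD. Per2, Cry1, Arntl and Per1 sat higher in all 6 cold libraries than in all 3 WT RT libraries, and Per3 spread from 14.5 to 33.0 CPM in WT RT.

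Among the activators, Arntl rose and its partners did so less or not at all. Arntl, the partner that CLOCK and NPAS2 share, was at 4.47, 6.44 and 5.05 CPM in WT RT, at 18.9, 17.8 and 9.34 CPM in WT Cold, and at 15.4, 18.6 and 11.1 CPM among libraries labelled GCN2 KO Cold. All 6 cold libraries were above all WT RT libraries, and library C was the lowest of each cold group. The log2 fold change against WT RT was 1.56 (SE 0.27, limma adjusted p = 0.00515, n = 3 and 3) in WT Cold and 1.68 (SE 0.22, limma adjusted p = 0.000982) among libraries labelled GCN2 KO Cold. Mean CPM was 2.89 and 2.83 times that of WT RT.

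Clock, the acetyltransferase and DNA-binding partner of BMAL1, moved little. It was at 50.9, 59.0 and 57.1 CPM in WT RT, at 79.4, 73.5 and 56.1 CPM in WT Cold, and at 59.1, 61.7 and 60.4 CPM among libraries labelled GCN2 KO Cold. WT Cold library C lay within the WT RT range in CPM, whereas on the normalized counts it was just above it, at 1749 against a highest WT RT value of 1712. Clock lay close to the threshold in WT Cold, where the log2 fold change was 0.40 (95% interval 0.10 to 0.69) and limma did not call it (adjusted p = 0.0531). With all libraries it was called higher by DESeq2 (adjusted p = 0.0262), by edgeR (adjusted p = 0.0493) and by limma once genes under a mean of 50 normalized counts were dropped (adjusted p = 0.0499). By limma it also passed without library C of WT Cold (0.53, adjusted p = 0.00545). In the libraries labelled GCN2 KO Cold it rose by 0.32 on the log2 scale (SE 0.09, limma adjusted p = 0.022). That call depended on the scaling: in CPM the median of all genes was -0.15 in this comparison, Clock was at 0.12, and the call was lost (limma adjusted p = 0.267), as it was in 1 fit of all groups (limma adjusted p = 0.471) and by limma without the trend (adjusted p = 0.0653). It was also lost without library A of WT RT (0.25, limma adjusted p = 0.0694) and without library B of the GCN2 KO Cold group (0.30, limma adjusted p = 0.0643), and without library C of that group and WT RT library B together (0.34, limma adjusted p = 0.0849).

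Npas2, the relative that can replace CLOCK, was close to the limit of detection in BAT at 27 to 76 reads per library. It was at 1.74, 1.69 and 1.08 CPM in WT RT, at 1.80, 2.64 and 1.11 CPM in WT Cold, and at 1.84, 0.94 and 1.03 CPM among libraries labelled GCN2 KO Cold. The 3 groups overlapped. The log2 fold change against WT RT was 0.32 (95% interval -0.48 to 1.12, limma adjusted p = 0.524) in WT Cold and -0.07 (95% interval -0.83 to 0.69, limma adjusted p = 0.886) among libraries labelled GCN2 KO Cold. Both intervals are wide.

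The 3 Period genes, which encode the repressor partners of the cryptochromes, did not move together. Per2 was at 10.9, 8.42 and 13.8 CPM in WT RT, at 38.9, 39.2 and 36.0 CPM in WT Cold, and at 27.1, 31.8 and 30.6 CPM among libraries labelled GCN2 KO Cold. Each cold library was far above the highest WT RT library. Per2 rose by 1.89 on the log2 scale in WT Cold (SE 0.19, limma adjusted p = 0.000638), the highest value among the members there, and by 1.66 among libraries labelled GCN2 KO Cold (SE 0.19, limma adjusted p = 0.0007). Per1, a Period gene that is rapidly induced by light and by hormones, was at 37.6, 20.9 and 36.8 CPM in WT RT, at 62.1, 56.3 and 70.3 CPM in WT Cold, and at 49.4, 56.9 and 54.9 CPM among libraries labelled GCN2 KO Cold. WT RT library B was well under the other libraries of its group, and the cold libraries were all higher than the WT RT libraries. The log2 fold change was 1.11 (SE 0.24, limma adjusted p = 0.0118) in WT Cold and 1.01 (SE 0.22, limma adjusted p = 0.00949) among libraries labelled GCN2 KO Cold. Without WT RT library B both calls stayed past the adjusted p, at 0.82 (limma adjusted p = 0.0085) and 0.71 (limma adjusted p = 0.0041), but no longer passed the threshold on fold. With all libraries, Per1 among libraries labelled GCN2 KO Cold was also under that threshold by DESeq2 (0.96), by edgeR (0.93), in CPM (0.78) and in 1 fit of all groups (0.78). So it was without library B (0.96) or C (0.99) of that cold group. Its adjusted p passed in each of these.

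Per3, the Period gene whose loss leaves the loop running, was not called in the main limma test and had lower, not higher, values in the cold. It was at 33.0, 14.5 and 24.5 CPM in WT RT, at 14.2, 13.1 and 13.2 CPM in WT Cold, and at 13.5, 12.1 and 10.8 CPM among libraries labelled GCN2 KO Cold. All 6 cold libraries were under the lowest WT RT library in CPM, and that library, B, lay only a little above them. On the normalized counts the groups overlapped in both comparisons. The log2 fold change was -0.67 (95% interval -1.30 to -0.04) in WT Cold and -0.71 (95% interval -1.33 to -0.09) among libraries labelled GCN2 KO Cold, and neither passed by limma (adjusted p = 0.104 and 0.0761). Without WT RT library B, Per3 was called lower in both comparisons, at -1.01 (limma adjusted p = 0.00577) and -1.05 (limma adjusted p = 0.00439). Without WT RT library A, the highest, it was at -0.41 (limma adjusted p = 0.274) and -0.45 (limma adjusted p = 0.222). With all libraries, it was called lower in both comparisons by DESeq2 on the recovered reads (adjusted p = 0.018 and 0.0105) and by limma in 1 fit of all groups (adjusted p = 0.0428 and 0.0149). Among libraries labelled GCN2 KO Cold it was also called lower by edgeR (adjusted p = 0.0455) and by limma in CPM (adjusted p = 0.028).

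The 2 cryptochromes, the main repressors of CLOCK and BMAL1, differed. Cry1 was at 10.4, 8.68 and 11.3 CPM in WT RT, at 34.3, 35.1 and 21.9 CPM in WT Cold, and at 25.3, 31.2 and 23.5 CPM among libraries labelled GCN2 KO Cold. Every cold library was above every WT RT library, and library C was again the lowest of each cold group. Cry1 rose by 1.65 on the log2 scale in WT Cold (SE 0.20, limma adjusted p = 0.00127) and by 1.60 among libraries labelled GCN2 KO Cold (SE 0.16, limma adjusted p = 0.000358). Cry2 was at 34.2, 20.9 and 24.3 CPM in WT RT, at 31.1, 27.6 and 28.9 CPM in WT Cold, and at 24.1, 23.5 and 20.8 CPM among libraries labelled GCN2 KO Cold. The WT RT libraries spanned nearly all of these values. The log2 fold change was 0.25 (95% interval -0.14 to 0.65, limma adjusted p = 0.308) in WT Cold and 0.02 (95% interval -0.38 to 0.41, limma adjusted p = 0.953) among libraries labelled GCN2 KO Cold. Leaving out 1 library moved the value in WT Cold to between 0.079 and 0.44, never called.

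Leaving out libraries did not end the calls of Arntl, Per1, Per2 or Cry1. WT RT library B and WT Cold library C lay farthest from their group mates over the 8 members, with root-mean-square distances of 0.53 and 0.48 on the log2 scale against 0.23 to 0.40 for the other 7 libraries. WT RT library B was also the highest in leukocyte transcripts, with Ly6c2 at 54.2 CPM against 13.9 and 11.8 CPM in its group mates. Library C of each cold group differed from the other 7 libraries in Ddx3y, a gene of the Y chromosome, at 7.02 and 10.5 CPM against 84.8 to 144 CPM, and in Xist, at 131 and 127 CPM against 11.2 to 43.5 CPM. These genes were chosen after their values were seen, the labels give no sex for a library, and the part of these differences in the clock values was not tested. All 3 WT RT libraries had high Ddx3y, at 86.8 to 93.4 CPM. The cold groups and WT RT were therefore not balanced in these genes. Without WT RT library B and WT Cold library C, 6 members were called in WT Cold, namely the 4 with Clock and with Per3 as lower, against 30.3% of all genes. Without WT RT library B and library C of the GCN2 KO Cold group, 5 were called, namely the 4 and Per3 as lower, against 20.6% of all genes.

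**Figure D2:**
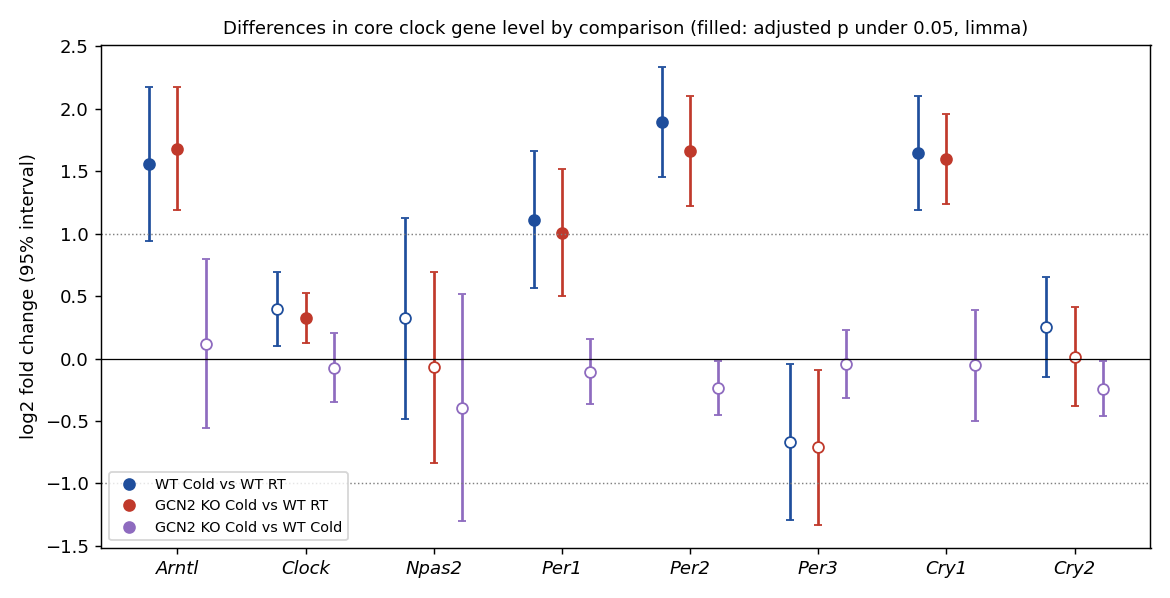
Differences in the 8 core clock genes as log2 fold changes on the y axis, for WT Cold against WT RT, GCN2 KO Cold against WT RT and GCN2 KO Cold against WT Cold; points are limma estimates and bars are 95% intervals. Arntl, Per1, Per2 and Cry1 were 1.01 to 1.89 above WT RT in both cold groups, and the estimates between the cold groups lay between -0.39 and 0.12.

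The comparison of the libraries labelled GCN2 KO Cold with WT Cold asked whether the deletion altered expression in the cold. None of the 8 members was called by limma, by DESeq2 or by edgeR, while 0.405% of 16312 genes were called by limma, 0.178% as higher and 0.227% as lower, and 0.257% were past the threshold on fold too. DESeq2 called 3.23% of its genes and edgeR 0.27%. At an unadjusted p under 0.05, limma had 2 members, edgeR 2 and DESeq2 0, and limma had 15.3% of all genes. The 2 by limma were Per2 and Cry2, whose normalized counts among libraries labelled GCN2 KO Cold were all under those of WT Cold, as were those of 10.7% of all genes tested, while no member and 11.3% of all genes were higher throughout. Per2 was at -0.23 (95% interval -0.45 to -0.02, limma adjusted p = 0.295) and Cry2 at -0.24 (95% interval -0.46 to -0.02, limma adjusted p = 0.285). The other 6 members overlapped between the cold groups. For Per1 the difference was -0.11 (95% interval -0.37 to 0.15, and -0.18 to -0.0068 leaving out 1 library), for Per3 -0.04 (-0.32 to 0.23) and for Clock -0.07 (-0.35 to 0.20). The intervals were wider for Arntl, at 0.12 (-0.56 to 0.80), and for Cry1, at -0.05 (-0.50 to 0.39), the genes in which library C stood low. Npas2, at -0.39 (-1.30 to 0.52, and -0.69 to -0.097 leaving out 1 library), was the least well determined. The median over the members was -0.09 against -0.00 over all genes. Differences of the size seen between cold and room temperature in Arntl, Per1, Per2 and Cry1 lay outside the intervals of these 4 genes.

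Per length of transcript, the order of the members was not the same in the cold groups as at room temperature. CPM per kilobase of exon (RPKM) compares levels between genes, with exon lengths from GENCODE on GRCm38. In WT RT the order was Per1 (5.64 ± 1.67 RPKM, SD, n = 3), Cry2 (4.19 ± 1.10), Clock (4.05 ± 0.31), Cry1 (3.03 ± 0.40), Per3 (2.5 ± 0.96), Per2 (1.89 ± 0.46), Arntl (0.71 ± 0.13) and Npas2 (0.31 ± 0.08). Neighbours overlapped between libraries except Clock over Cry1, Per2 over Arntl and Arntl over Npas2. In WT Cold the order was Per1 (11.2 ± 1.25 RPKM), Cry1 (9.12 ± 2.22), Per2 (6.49 ± 0.30), Clock (5.08 ± 0.88), Cry2 (4.62 ± 0.28), Arntl (2.04 ± 0.70), Per3 (1.40 ± 0.06) and Npas2 (0.39 ± 0.16). There Per1 overlapped with Cry1, Cry1 with Per2, Clock with Cry2 and Arntl with Per3, and the other neighbours did not overlap. The order of the means was the same among libraries labelled GCN2 KO Cold, with Per1 at 9.55 ± 0.69, Cry1 at 7.99 ± 1.21, Per2 at 5.10 ± 0.42, Clock at 4.40 ± 0.10, Cry2 at 3.61 ± 0.28, Arntl at 2.00 ± 0.50, Per3 at 1.26 ± 0.14 and Npas2 at 0.27 ± 0.10 RPKM, and Per1 and Cry1 were the only neighbours that overlapped. At room temperature Per3 was thus above Per2 in mean level, and in both cold groups it was below every member but Npas2.

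The genes tied to the core loop moved in both directions. Of 12 genes of the second loop and its output, 3 rose and 3 fell by limma in WT Cold (median log2 fold change -0.10) and the same counts held among libraries labelled GCN2 KO Cold (median -0.20), where CPM gave 2 higher and 4 lower. Over all genes, 13.6% were called higher and 14.1% lower in the first comparison, and 16.4% and 17.8% in the second. DESeq2 called 3 genes of the list higher and 4 lower in each. The 3 higher genes in WT Cold became 1 without WT Cold library A, without WT Cold library B or by limma without the trend, while 3 were lower in each of these fits. Nr1d1, which encodes the Arntl repressor REV-ERBα, was at 150, 121 and 151 CPM in WT RT, at 51.2, 43.9 and 40.6 CPM in WT Cold, and at 36.0, 30.2 and 37.0 CPM among libraries labelled GCN2 KO Cold. It fell by 1.55 on the log2 scale in WT Cold (limma adjusted p = 0.000309) and by 1.82 among libraries labelled GCN2 KO Cold (limma adjusted p = 9.97e-05). Nfil3, the repressor that binds D-boxes, was at 11.7, 10.6 and 14.6 CPM in WT RT, at 43.6, 66.9 and 84.6 CPM in WT Cold, and at 43.5, 52.4 and 45.8 CPM among libraries labelled GCN2 KO Cold. It rose by 2.45 (limma adjusted p = 0.000782) and 2.15 (limma adjusted p = 0.000112).

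Dbp, the activator that binds the same D-boxes as Nfil3 and a well-known output of CLOCK and BMAL1, was at 78.9, 37.0 and 54.0 CPM in WT RT, at 22.1, 21.3 and 22.1 CPM in WT Cold, and at 25.0, 18.8 and 21.8 CPM among libraries labelled GCN2 KO Cold. The log2 fold change was -1.22 (limma adjusted p = 0.00904) and -1.11 (limma adjusted p = 0.00997). Its relative Tef, in contrast, rose by 0.74 (limma adjusted p = 0.0203) and 0.66 (limma adjusted p = 0.0215). Bhlhe40, an E-box-binding repressor, fell by 1.20 (limma adjusted p = 0.00382) and by 1.19 (limma adjusted p = 0.000389), and Ciart, a repressor of CLOCK and BMAL1, rose by 0.83 (limma adjusted p = 0.0371) and 1.13 (limma adjusted p = 0.00417). By limma, Nr1d2, Hlf and Bhlhe41 did not pass in either comparison. Tef and these 3 genes are named outside the rule for named genes, after their values were seen. Per1, Per2, Cry1, Nr1d1 and Dbp are all known E-box targets, and the first 3 of them rose while the others fell.

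**Figure D3:**
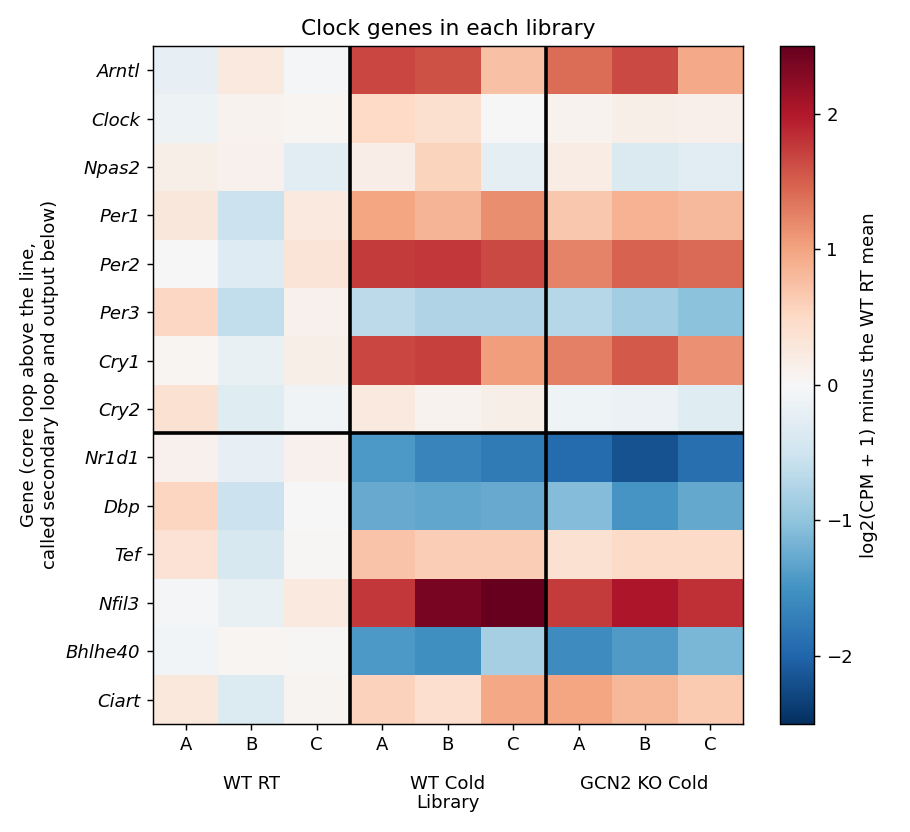
Each row is a core loop gene (above the line) or a second loop and output gene called in either cold comparison (below it), each column a library, and the colour is log2(CPM + 1) minus the WT RT mean of that gene, from blue (lower) to red (higher). Arntl, Per1, Per2, Cry1 and Nfil3 were red and Per3, Nr1d1, Dbp and Bhlhe40 blue in all 6 cold libraries, and WT RT library B was lower than its group mates in Per1, Per3 and Dbp.

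Enzymes and other proteins tied to the clock gave 5 of 15 genes higher and 3 lower by limma in WT Cold (median 0.17). Among libraries labelled GCN2 KO Cold, 6 were higher and 3 lower (median 0.09). The shares of all genes called higher and lower were 13.6% and 14.1% in WT Cold, and 16.4% and 17.8% among libraries labelled GCN2 KO Cold. The direction among libraries labelled GCN2 KO Cold depended on the scaling, since CPM gave 2 higher and 5 lower (median -0.11, against -0.15 over all genes). Usp2, a deubiquitinase of clock proteins, rose by 2.06 (limma adjusted p = 0.00142) and 2.35 (limma adjusted p = 0.000465). Fbxl21, a cryptochrome ubiquitin ligase subunit, fell by 2.29 (limma adjusted p = 0.0332) and by 1.49 (limma adjusted p = 0.0224). It had only 28 to 31 reads in WT RT, 1 to 9 in WT Cold and 5 to 13 among libraries labelled GCN2 KO Cold, so these folds depend on the pseudocount: with a pseudocount of 5, no gene of the list was below -1.63 in WT Cold. Without WT Cold library A none was below -1.52. In WT Cold, 2 genes of the list passed both thresholds, and 1 did by limma without the trend or without WT RT library A, B or C. Timeless fell by 0.93 (limma adjusted p = 0.00599) and by 0.99 (limma adjusted p = 0.00423), and Btrc, a subunit of the ligase that targets PER proteins, fell by 0.83 (limma adjusted p = 0.00404) and by 0.75 (limma adjusted p = 0.00203). Among 12 chromatin cofactors of the loop, 2 rose and 1 fell by limma in WT Cold, and 2 rose and 3 fell among libraries labelled GCN2 KO Cold (medians -0.02 and -0.08). The share called was close to the 27.7% and 34.2% of all genes. In CPM the second comparison gave 1 higher and 7 lower, with a list median of -0.27 against -0.15 over all genes. That fit called 38.1% of all genes. Crebbp, an acetyltransferase that BMAL1 and CLOCK recruit, rose by 0.75 (limma adjusted p = 0.00378) and 0.58 (limma adjusted p = 0.00359), Sfpq by 0.40 and 0.43 (limma adjusted p = 0.0171 and 0.00836), and Sin3a, a scaffold of corepressor complexes, fell by 0.49 and by 0.69 (limma adjusted p = 0.00971 and 0.00361). Kmt2a, a histone methyltransferase, fell by 0.36 among libraries labelled GCN2 KO Cold (limma adjusted p = 0.0184) and was at -0.17 in WT Cold (limma adjusted p = 0.192).

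Genes of 3 inputs to the clock were also read. Of 12 CREB-linked inducible genes, which respond to cAMP, 6 rose and none fell by limma in either cold comparison (medians 0.68 and 0.62). The lowest log2 fold changes of this list, which were not called, were -0.11 in WT Cold and -0.72 among libraries labelled GCN2 KO Cold. Over all genes, 13.6% were called higher and 14.1% lower in WT Cold, and 16.4% and 17.8% among libraries labelled GCN2 KO Cold. Among libraries labelled GCN2 KO Cold, DESeq2 and CPM each gave 6 higher and 1 lower, and 1 fit of all groups gave 5 higher and 2 lower (median 0.36). Dio2, the deiodinase that makes active thyroid hormone in BAT, rose by 3.63 (limma adjusted p = 0.000138) and 3.77 (limma adjusted p = 2.13e-05), Ppargc1a by 2.70 (limma adjusted p = 0.00054) and 2.77 (limma adjusted p = 0.0014), and Nr4a3 by 3.19 (limma adjusted p = 0.00075) and 2.58 (limma adjusted p = 0.00291). Fosb, which encodes an AP-1 subunit, rose by 1.29 (limma adjusted p = 0.016) and 0.95 (limma adjusted p = 0.021), and Crem, the cAMP-responsive element modulator gene, by 0.92 (limma adjusted p = 0.00214) and 1.03 (limma adjusted p = 0.000623). Of 12 glucocorticoid-inducible genes, 11 rose in WT Cold, all by more than 1 on the log2 scale (median 1.52), and 11 rose and 1 fell among libraries labelled GCN2 KO Cold (median 1.34), against the same shares over all genes. Past both the adjusted p and the fold threshold were 8.14% of all genes in WT Cold. WT Cold library C and WT RT library B bore on the count past both thresholds, which was 7 of 12 without both, an alternative chosen after seeing the data. Fkbp5, a chaperone of the glucocorticoid receptor, rose by 2.52 (limma adjusted p = 0.000102) and 2.12 (limma adjusted p = 0.000219), Cdkn1a by 2.21 (limma adjusted p = 8.33e-05) and 2.27 (limma adjusted p = 6.9e-05), and Mt2 by 2.16 (limma adjusted p = 0.00178) and 1.96 (limma adjusted p = 6.54e-05). Zbtb16 rose by 2.26 (limma adjusted p = 0.00106) and 1.80 (limma adjusted p = 0.000929), and the metallothionein gene Mt1 by 1.97 (limma adjusted p = 0.000641) and 1.90 (limma adjusted p = 2.26e-05). Pdk4, named outside the rule as the gene that fell, was at -0.29 in WT Cold (limma adjusted p = 0.338) and fell by 0.79 among libraries labelled GCN2 KO Cold (limma adjusted p = 0.00902). Several members of these lists answer to more than one signal.

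Of 9 temperature-linked genes, 5 rose by limma in WT Cold and 3 among libraries labelled GCN2 KO Cold (medians 0.47 and 0.24), and none fell. Over all genes, 27.7% and 34.2% were called, and 3 of 9 is close to the latter. The 5 became 3 without WT RT library A, without WT Cold library A or by limma without the trend, and without library A of the other cold group 2 rose and 1 fell there. The heat shock gene Hspa8 rose by 1.36 (limma adjusted p = 0.00709) and 1.51 (limma adjusted p = 0.000163), and Hsp90aa1 by 0.85 (limma adjusted p = 0.0291) and 0.88 (limma adjusted p = 0.0056). Rbm3, the cold-inducible RNA-binding protein gene, rose by 0.39 (limma adjusted p = 0.0492) and 0.47 (limma adjusted p = 0.0185), and its relative Cirbp, which is known to bind Clock RNA, was at -0.14 (limma adjusted p = 0.513) and -0.05 (limma adjusted p = 0.711). Cirbp is named outside the rule for named genes, after its values were seen. Hspa1a rose by 1.51 in WT Cold (limma adjusted p = 0.00475) and was at -0.66 among libraries labelled GCN2 KO Cold (limma adjusted p = 0.139), and its near-identical copy Hspa1b, with which it may share reads, rose by 1.04 in WT Cold (limma adjusted p = 0.00712) and was at 0.15 in the other comparison (limma adjusted p = 0.652). The direct comparison of the cold groups gave -2.16 for Hspa1a (limma adjusted p = 0.0653), and limma called no gene of these 6 lists, in which Fbxl21 was not tested. DESeq2 called 2 temperature-linked genes lower, limma in CPM 1, and 1 fit of all groups 1 of them, 1 gene of the list with the enzymes and 1 chromatin gene, all lower.

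**Figure D4:**
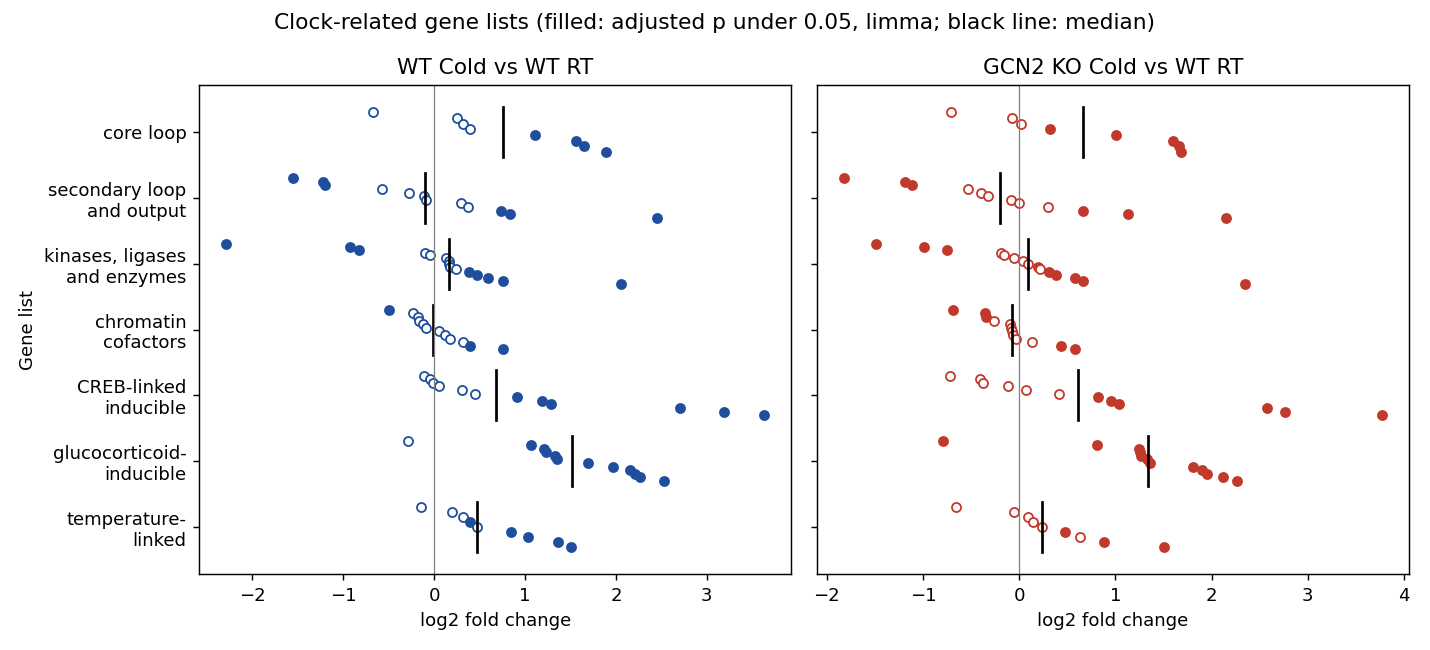
Log2 fold changes of every gene in the core loop and in 6 clock-related lists, for WT Cold and GCN2 KO Cold against WT RT; filled points passed limma at an adjusted p under 0.05 and the black line is the list median. All glucocorticoid-inducible genes but Pdk4 were filled and above 0 in both panels, and the second loop and output list ran from -1.55 to 2.45 in WT Cold.

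The genes whose profile over the 9 libraries was nearest to that of each called member were found by the root-mean-square difference of centred log2(CPM + 1) values among 14046 genes with a mean of at least 1 CPM, as a description. For Arntl they were Ctcflos (0.21), Cry1 (0.23) and Sdk2 (0.23), and for Cry1 they were G0s2, an inhibitor of the lipase ATGL (0.16), Timp4 (0.17) and Ctcflos (0.18). Arntl and Cry1 shared the low library C in both cold groups. For Per2 they were Got1, the cytosolic aspartate aminotransferase (0.17), Tinagl1 (0.17) and Fam107a (0.18), and for Per1 they were Hecw2 (0.16), Abhd15 (0.17) and Sult1a1 (0.19). For Clock, whose own profile varied by only 0.18, they were Trim2 (0.04), Tmem64 (0.04) and Ephb4 (0.04). Per2 and Cry1 were 0.21 apart, while Per3 was 1.10 from Arntl.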

How the data were processed

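Per the labels and the submitters' processing notes, the authors trimmed reads (Trimmomatic 0.36), aligned them (STAR 2.5.2b, GRCm39), counted reads per gene (featureCounts, Subread 1.5.2) and compared groups with DESeq2. The deposited values are signal: the authors' counts divided by a size factor per library, set within each of 3 pairwise tables. Deposited fold changes and p-values were not used. All values (100%) were whole multiples of a read (tolerance 0.001), and reads were identical between tables. From these, CPM and RPKM were computed. The members and lists were chosen with earlier results of these data known. The main test was limma 3.58.1 (R 4.3.3) with a trend on log2(normalized count + 1), 6 libraries per table, Benjamini-Hochberg adjusted over all its genes. DESeq2 1.42.0 and edgeR 4.0.16 on the recovered reads, other pseudocounts, a filter, CPM, 1 fit of all groups and leaving out libraries were alternatives. The scripts were tested on simulated data. Named beside the 8 members were, per list and cold comparison, up to 4 called genes with the largest absolute log2 fold change, 3 nearest profiles per called member, and Eif2ak4. Each library was put in the group shared by the pairwise tables that list its code, and the codes carry no mouse number. P-values measure the spread between mice of a group only. Positions and exon lengths are from GENCODE on GRCm38, another build than the authors' GRCm39, and promoter sequences from RefSeq. One gene of the second loop list is not reported here by name.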

Additional observations from a re-analysis of the deposited data

Results flagged for a closer look

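Cry2 was singled out because, in CPM, all 3 WT Cold libraries were above the WT RT mean of 26.5 CPM and all 3 libraries labelled GCN2 KO Cold were below it. The direct comparison of the cold groups gave a log2 difference of -0.24 (limma adjusted p = 0.285), so no call was made, and the position relative to the WT RT mean was itself not tested. The 3 WT RT libraries were at 34.2, 20.9 and 24.3 CPM and lay on both sides of WT Cold, at 27.6 to 31.1 CPM. The lowest of them was within the range of the libraries labelled GCN2 KO Cold, at 20.8 to 24.1 CPM. On the normalized counts the GCN2 KO Cold mean was 709 ± 51.6 (SD, n = 3) against 715 ± 183 (SD, n = 3) in WT RT, and the groups overlapped.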

How the results depend on the processing

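Arntl, Per1, Per2 and Cry1 were called in both cold comparisons under every alternative run, and no count of called members moved by more than 1.5 times. Per3 and Clock were the members whose calls changed. DESeq2 called 6 members in each cold comparison (29.6% and 34.4% of all genes), and edgeR 5 and 6 (27.6% and 34.2%). Between the cold groups, where no member was called, limma called 66 genes, DESeq2 526 and edgeR 44. Signs turned only for members that were not called, and the cause was not tested. Relative to WT RT, Cry2 among libraries labelled GCN2 KO Cold was at -0.012 by DESeq2, -0.035 by edgeR, -0.18 in CPM, -0.18 with all groups in one fit and -0.10 without library C of that group and WT RT library B, an alternative chosen after seeing the data, and leaving out 1 library gave -0.16 to 0.21. Npas2 there was at 0.12 without the same 2 libraries and at -0.36 to 0.11 leaving out 1. Between the cold groups, leaving out 1 library gave -0.19 to 0.32 for Arntl, -0.21 to 0.010 for Clock, -0.12 to 0.033 for Per3 and -0.26 to 0.068 for Cry1, and Per3 was at 0.035 without both C libraries. Of the list counts, 259 stayed within 1.5 times and 11 did not, among them the temperature-linked list in WT Cold, which fell from 5 to 3 called genes without the trend, without WT RT library A and without WT Cold library A. This tally takes no account of direction. It also includes the comparison of the cold groups, where the main fit called no gene of any list. No paired analysis was possible because the columns carry no replicate numbers that tie a mouse to another group. With 3 libraries per group, Npas2 is the member least well measured.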
